A study of Mus musculus with 12 samples.

Results

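The dense windows are 1 Mb stretches of the mouse autosomes that hold many FoxP3 peaks. Chromosomes 1 to 19 of the mm9 genome were divided into 1 Mb windows by the position of the peak summit, and a window was a member if it held 30 or more peaks in the peak list of WT replicate 1 and in that of A384T replicate 1. This rule picked 44 windows out of 1787 that held at least 1 peak in any list (2.46%). The 6 lists together placed 6305 of their 51881 autosomal peaks in these windows: WT replicates 1, 2 and 3 placed 2437, 288 and 692 there, and A384T replicates 1, 2 and 3 placed 1785, 817 and 286. Where 3 values are given for a genotype below, they stand in the order of replicates 1, 2 and 3. The counts of both replicate 1 lists chose the windows, so those lists are described here without a test, and tests use replicates 2 and 3.

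FoxP3 is the forkhead transcription factor that specifies regulatory T (Treg) cells, which restrain immune responses, and it binds DNA through a forkhead domain near its carboxyl end. A384T is a substitution within that domain known from patients with the immune disorder IPEX. Transcription factor binding sites are not spread evenly along chromosomes, and lineage factors often bind at many sites within the regulatory region of a single gene.

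Chromatin immunoprecipitation with a rabbit polyclonal FoxP3 antibody and sequencing (ChIP-seq) was done on CD4+ hCD2+ Treg cells from lymph nodes and spleen of C57BL/6J mice. The WT group came from FoxP3WT:hCD2 mice and the A384T group from FoxP3A384T:hCD2 mice, with 3 ChIP libraries each; both lines carry the human CD2 reporter by which the cells were sorted magnetically. The cells were freshly isolated and untreated, and the labels give neither age nor whether replicates were separate animals, so each p-value rests on the spread among these libraries alone, and that spread may be technical. Autosomal lists held from 1670 peaks (WT replicate 2) to 20218 (WT replicate 1), from 17520951 to 25386770 unique ChIP tags, and the tags were 51 bp long in both replicate 1 libraries and 49 bp in the other 4. All tests below therefore fall within 1 tag length. Windows are named by chromosome and by mm9 position in Mb, because the gene table at hand belongs to another mouse assembly; for the same reason no gene or sequence is given. Peak lists hold no expression values, so the Treg identity of the cells rests on the labels.

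The dense windows were spread over 18 of the 19 autosomes. Chromosome 1 held 7 of them, chromosomes 7, 10 and 11 held 4 each, and chromosomes 9, 17 and 19 held 3 each. The remaining windows lay as 1 or 2 per chromosome, and chromosome 18 had none. Just 1 pair of windows lay side by side, on chromosome 10 from 79 to 81 Mb. The rule took 44 of the 126 windows with 30 or more peaks in WT replicate 1 and of the 66 in A384T replicate 1. WT replicate 1 had the higher count in 35 of the 44 windows and A384T replicate 1 in 9.

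In the replicate 1 lists, the windows ranged from 30 to 150 peaks in WT (median 47) and from 30 to 65 in A384T (median 38). The fullest window of WT replicate 1 was chromosome 4 from 123 to 124 Mb, and that of A384T replicate 1 was chromosome 9 from 32 to 33 Mb. At the threshold, the window on chromosome 7 from 31 to 32 Mb was just inside with 32 peaks in WT replicate 1 and 30 in A384T replicate 1. The window on chromosome 10 from 13 to 14 Mb was inside as well, with 35 and 30. Just outside lay 16 windows whose lower count was 28 or 29. Chromosome 1 from 52 to 53 Mb had 55 and 28 peaks, chromosome 2 from 29 to 30 Mb had 45 and 28, and chromosome 3 from 96 to 97 Mb had 29 and 33. In replicates 2 and 3 the counts of windows on either side of the threshold overlapped. The window on chromosome 7 had 3 and 6 peaks in WT and 9 and 2 in A384T, and that on chromosome 10 had 11 and 16 and then 28 and 10. Outside, chromosome 1 from 52 to 53 Mb had 4 and 11 peaks in WT and 18 and 5 in A384T, above the window on chromosome 7.

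The windows chosen on replicate 1 were also full in replicates 2 and 3. A dense window held on average 6.55 peaks in WT replicate 2, 15.7 in WT replicate 3, 18.6 in A384T replicate 2 and 6.50 in A384T replicate 3. The other autosomal windows with a peak in any list averaged 0.793, 1.76, 3.25 and 0.999 peaks in the same libraries. The dense windows thus held 8.26, 8.96, 5.72 and 6.50 times as many peaks. All 44 had a peak in WT replicate 3 and in A384T replicate 2, while 3 had none in WT replicate 2 and 2 had none in A384T replicate 3. In all, 40 of the 44 windows had a peak in each of the 6 lists.

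**Figure D1:**
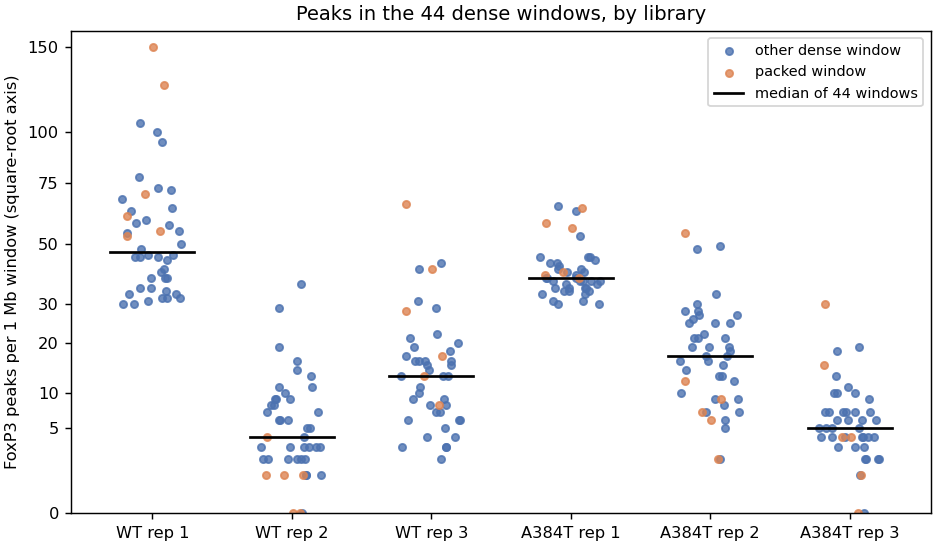
Number of FoxP3 peaks in each of the 44 dense windows (points) by library, on a square-root axis; black bars are medians over the windows and orange points are the 6 packed windows described in the text. The medians are 47, 4 and 13 for WT and 38, 17 and 5 for A384T, in the order of replicates 1, 2 and 3; no packed window has more than 4 peaks in WT replicate 2, while 1 of them is the highest point in WT replicate 3 and in A384T replicates 2 and 3.

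Windows were ranked by peak count among the 1787 autosomal windows with a peak in any list. The median dense window stood at the 94.6 and 97.8 percentile in replicates 2 and 3 of WT, and at the 98.04 and 96.4 percentile in those of A384T. The median dense window thus kept a high rank in lists that did not choose it. Some windows fell far down the order, the lowest to the 30.7 percentile in WT replicate 2 and the 24.6 percentile in A384T replicate 3, which is the percentile of windows with 0 peaks. The first 44 ranks, ties included, held 57, 44, 53 and 49 windows in WT replicates 2 and 3 and A384T replicates 2 and 3. Of these, 19, 25, 25 and 20 were dense windows.

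Among the dense windows themselves, the order of the counts was partly shared between lists. Over the 44 windows the Spearman correlation of the counts was 0.60 between WT replicates 2 and 3, 0.72 between A384T replicates 2 and 3, and 0.88 between WT replicate 2 and A384T replicate 2. The replicate 1 lists, which chose the windows, had lower values against some of these: 0.32 between WT replicates 1 and 2 and 0.14 between A384T replicates 1 and 2, but 0.81 between WT replicates 1 and 3. Over the 38 windows without the packed ones described next, it was 0.90 between WT replicates 2 and 3 and 0.65 between WT replicates 1 and 2. The A384T values stayed nearer to those over 44 windows, with 0.72 between replicates 2 and 3 and 0.25 between replicates 1 and 2. These correlations run across windows that share libraries and list lengths, and windows are not replicates.

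The windows differed in the gap between neighbouring peak summits. In 6 windows the median gap in WT replicate 1 was 1 kb or less (0.699 to 0.980 kb), and these are called packed windows. In the other 38 it ran from 1.62 to 22.04 kb, with a median of 4.58 kb. This split was made after the gaps were seen, so it is a description. The packed windows lie on chromosome 1 from 55 to 56 Mb and from 152 to 153 Mb, chromosome 4 from 123 to 124 Mb, chromosome 12 from 52 to 53 Mb, chromosome 15 from 81 to 82 Mb and chromosome 19 from 25 to 26 Mb. They held 515 of the 2437 peaks that WT replicate 1 had in dense windows (21.1%), but 7 of 288 in WT replicate 2 (2.43%). In WT replicate 3 they held 173 (25.0%), and in A384T replicates 1, 2 and 3 they held 295 (16.5%), 90 (11.0%) and 54 (18.9%).

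In the packed windows the control background was near its lowest. The background is taken here as the deposited pileup over the deposited fold enrichment. It stands for the local control level that the peak caller compares with, and is not the control pileup itself. The control level of the caller cannot fall below a floor set for each list. The lowest background of any peak was 2.28 in WT replicate 1 and 2.33 in A384T replicate 1. Peaks of the packed windows had median backgrounds of 2.37 and 2.45 in these 2 libraries, and 2.40, 2.45, 2.45 and 2.53 in WT replicates 2 and 3 and A384T replicates 2 and 3. Peaks outside the dense windows had medians of 3.91 and 4.63 in the replicate 1 lists of WT and A384T. The part that background plays in these counts was not tested.

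**Figure D2:**
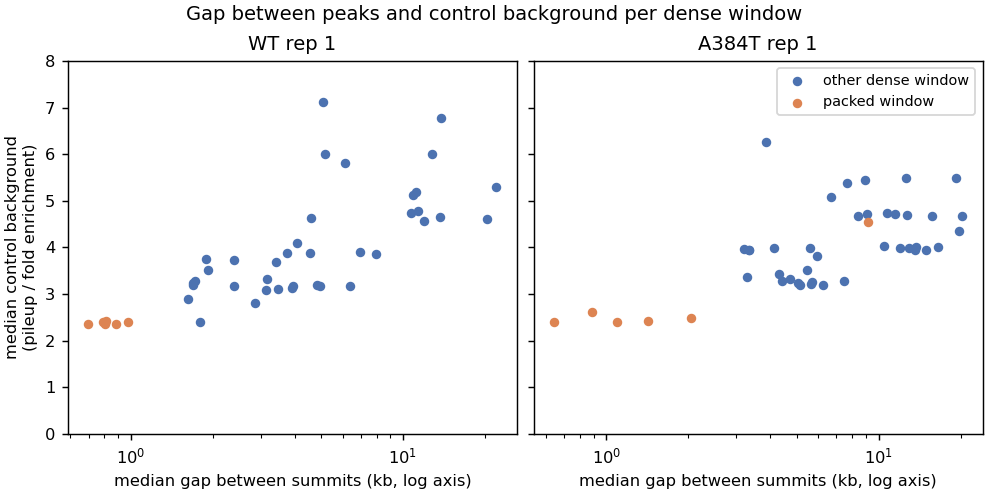
Median gap between neighbouring peak summits (kb, log axis) against the median control background of the peaks (deposited pileup divided by fold enrichment) for each of the 44 dense windows in WT replicate 1 (left) and A384T replicate 1 (right). The 6 packed windows, in orange, have gaps of 0.699 to 0.980 kb and backgrounds near 2.4 in WT replicate 1; in A384T replicate 1 their gaps run from 0.643 to 9.17 kb.

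The plot of gap against background shows 5 of the 6 packed windows at the left in A384T replicate 1 as well. There the median gap was 0.885 and 0.643 kb in the windows of chromosome 1, 1.42 kb on chromosome 4, 2.04 kb on chromosome 12 and 1.09 kb on chromosome 19. The window on chromosome 15 had a median gap of 9.17 kb and a background of 4.54, and lay among the windows that were not packed.

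Many peaks of the packed windows stood in unbroken rows. With a row defined as 10 or more peaks whose neighbouring summits lie within 3 kb, WT replicate 1 had 58 rows on the autosomes with 1249 peaks, and 21 of these rows with 597 peaks lay in 15 dense windows. Rows took in 24.5% of the peaks of dense windows in this list and 3.67% of the peaks elsewhere. WT replicate 3 had 8 rows (16.9% of its peaks in dense windows and 2.12% of the others), A384T replicate 1 had 9 (9.47 and 0.182%), A384T replicate 2 had 1 and A384T replicate 3 had 2. WT replicate 2 had 0 rows. The row limits were also set after the data were seen, and a longer list has more chances to form a row. Rows also add to the counts by which both replicate 1 lists chose the windows. The higher share inside in those lists therefore follows in part from the rule.

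A row was present in 5 of the 6 libraries on chromosome 1 between 152246622 and 152298578. These are the bounds of the row in WT replicate 1, which favours that library in counts and coverage by construction. Over these 51.96 kb WT had 56, 4 and 66 peaks and A384T had 53, 52 and 30. Its window was the fullest of WT replicate 3, A384T replicate 2 and A384T replicate 3, with 66, 54 and 30 peaks. Peaks covered 63.1% of the stretch in WT replicate 1, 48.3% in WT replicate 3, and 36.3, 25.7 and 11.98% in A384T replicates 1, 2 and 3. The median percentile of their -log10 q (the significance the peak caller gave each peak, ranked from 0 to 100 in its own list) was 59.7, 4.78 and 29.1 in WT and 44.9, 20.8 and 15.6 in A384T. It lay above the middle of the list in WT replicate 1 and below it in the other 5 libraries. WT replicate 3 had more peaks there than WT replicate 1, although its list of 3753 autosomal peaks was shorter than the other's 20218.

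The next stretches are likewise bounded by rows of WT replicate 1, which favours that library in the counts by construction. The longest ran on chromosome 19 from 25192744 to 25265750, with 84, 0 and 14 peaks in WT and 47, 5 and 1 in A384T. A384T replicate 1 had a row of its own there, with 39 peaks over 42.5 kb. The whole 1 Mb window had 126, 1 and 17 peaks in WT and 64, 9 and 1 in A384T. On chromosome 4 between 123153306 and 123189822 there were 50, 0 and 22 peaks in WT and 20, 3 and 1 in A384T. This window held 2 more rows in WT replicate 1, and its total of 150 peaks there stood against 0 in WT replicate 2. On chromosome 15 between 81442595 and 81474516 WT replicate 1 had 38 peaks, WT replicate 3 had 7, A384T replicate 1 had 12 and the other 3 libraries had 0. The row on chromosome 1 from 55043199 to 55074404 held peaks in every library, with 40, 1 and 27 peaks in WT and 28, 11 and 13 in A384T, and WT replicate 3, A384T replicate 1 and A384T replicate 3 had rows of 25, 26 and 13 peaks within it. On chromosome 12 between 52849541 and 52876958 the counts were 31, 0 and 8 in WT and 16, 2 and 2 in A384T.

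**Figure D3:**
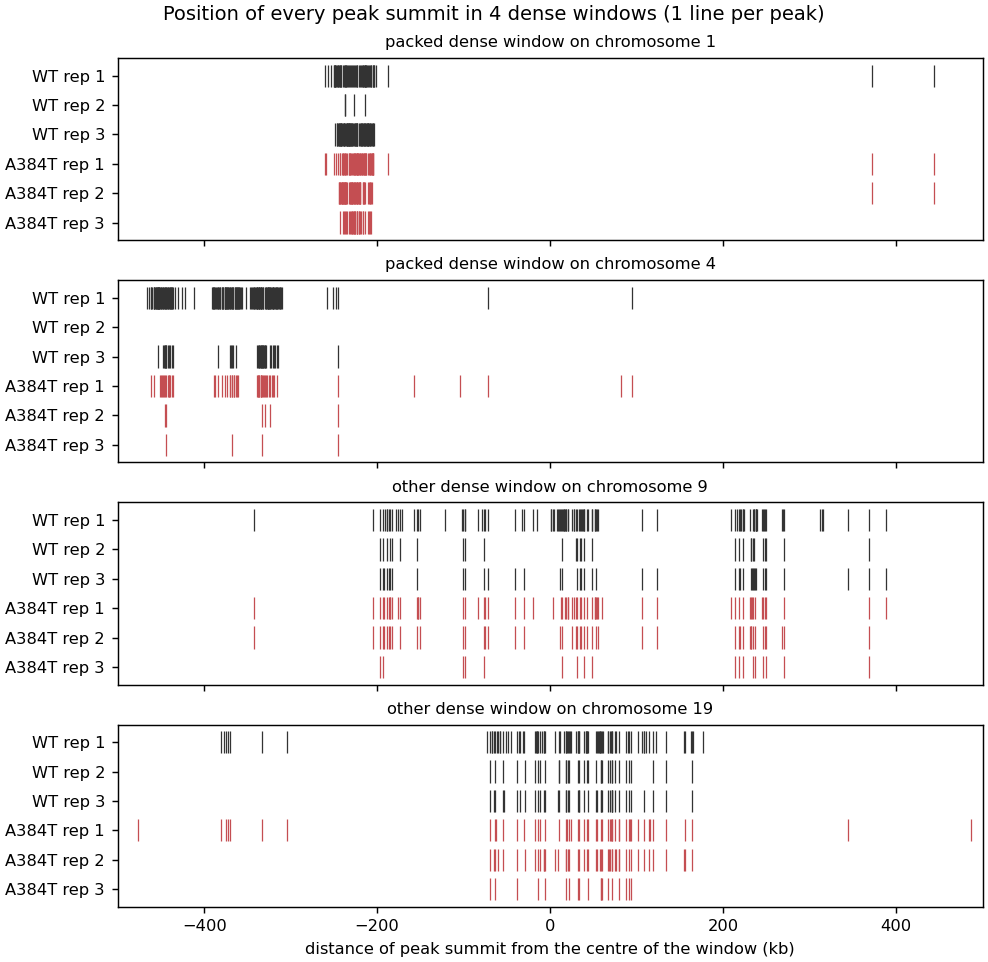
Summit of every FoxP3 peak in 4 dense windows, 1 line per peak, by library (WT in black, A384T in red); the horizontal axis is the distance from the centre of the 1 Mb window in kb. The 4 are the packed and other dense windows with the most peaks over all lists, 2 of each kind: peaks of the packed windows form solid rows that thin out or vanish in some libraries, whereas in the other 2 windows peaks stand farther apart and many positions recur across libraries.

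The fullest of the other dense windows over replicates 2 and 3 lay on chromosomes 19 and 9. Chromosome 19 from 11 to 12 Mb had 95, 36 and 43 peaks in WT and 53, 49 and 19 in A384T. Chromosome 9 from 32 to 33 Mb had 105, 29 and 41 in WT and 65, 48 and 18 in A384T. In WT replicate 2 these ranked 1 and 2 among all autosomal windows, and they were among the first 3 in each list of replicates 2 and 3. As the plot of summit positions shows, the peaks on chromosome 19 lay mostly in 1 stretch near the centre of the window, and those on chromosome 9 in more than 1 group. Both also held rows in WT replicate 1, of 10 peaks on chromosome 19 and of 18 and 12 on chromosome 9. Each of these windows held 18 regions with a peak in all 6 libraries, the highest number among the dense windows.

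Chromosome 7 from 82 to 83 Mb had 78, 19 and 31 peaks in WT and 43, 30 and 13 in A384T, and it held 10 regions found in all 6 libraries. Chromosome 19 from 53 to 54 Mb followed a like course, with 64, 13 and 16 in WT and 45, 25 and 9 in A384T. Chromosome 2 from 11 to 12 Mb had 63, 8 and 21 in WT and 43, 25 and 7 in A384T. Chromosome 6 from 99 to 100 Mb, with 73, 16 and 22 in WT and 39, 33 and 10 in A384T, was among the 5 fullest windows over replicates 2 and 3. In these 4 windows the order of the libraries was that of their list lengths within each genotype.

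Some windows near the top in replicate 1 ranked lower in other lists, by a margin that differed between lists. On chromosome 10 from 80 to 81 Mb the counts were 45, 2 and 7 in WT and 63, 9 and 3 in A384T. The window on chromosome 9 from 44 to 45 Mb had 68, 3 and 13 in WT and 45, 16 and 5 in A384T, and that on chromosome 11 from 98 to 99 Mb had 57, 3 and 13 and 45, 17 and 2. In replicates 2 and 3 the window on chromosome 10 ranked 197 and 108 in WT and 158 and 136 in A384T. That on chromosome 9 ranked 117 and 37 in WT and 39 and 50 in A384T. That on chromosome 11 ranked 117 and 37 in WT and 34 and 254 in A384T. The lowest of all over replicates 2 and 3 was chromosome 13 from 23 to 24 Mb, with 32 and 41 peaks in the replicate 1 lists of WT and A384T but, in replicates 2 and 3, just 0 and 2 for WT and 2 and 1 for A384T. Chromosome 7 from 25 to 26 Mb had 32 and 33 peaks in the replicate 1 lists, and in replicates 2 and 3 it had 1 and 3 in WT and 5 and 0 in A384T. Next came chromosome 15 from 81 to 82 Mb, chromosome 3 from 89 to 90 Mb and chromosome 9 from 107 to 108 Mb, with 10, 13 and 16 peaks summed over the 4 lists. High counts in both replicate 1 lists therefore did not ensure high counts in the others.

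The windows also differed in how much of their count a short stretch held. In WT replicate 1 the fullest 100 kb of a dense window held a median of 43.9% of its peaks. This share ran from 20% on chromosome 10 from 80 to 81 Mb to 96.7% on chromosome 1 from 152 to 153 Mb, and 15 of the 44 windows had at least 50% of their peaks in 100 kb. It was 65.3 to 96.7% in the packed windows and had a median of 40.3% in the others.

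The share of peaks lying in the dense windows was lower in each A384T list than in each WT list of replicates 2 and 3. To give all lists the same length, each was reduced to its 1670 strongest autosomal peaks by -log10 q. WT replicate 2 thereby kept its whole list, while A384T replicate 2 kept 1670 of 6478 peaks, so the depth within each list was not matched. Then 17.2% of WT replicate 2 (exact Clopper-Pearson 95% interval 15.5 to 19.1%) and 16.8% of WT replicate 3 (15.1 to 18.7%) lay in the dense windows. For A384T replicates 2 and 3 the shares were 14.3% (12.6 to 16.02%) and 12.9% (11.4 to 14.6%). WT averaged 17.04 ± 0.296% and A384T 13.6 ± 0.932% (SD, n = 2 per genotype), so that A384T minus WT was -3.44 percentage points. All intervals cover counting error only. The genotypes did not overlap, but the two-sided exact permutation test gave p = 0.333, the smallest that 2 against 2 allows, so the design cannot resolve the difference.

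**Figure D4:**
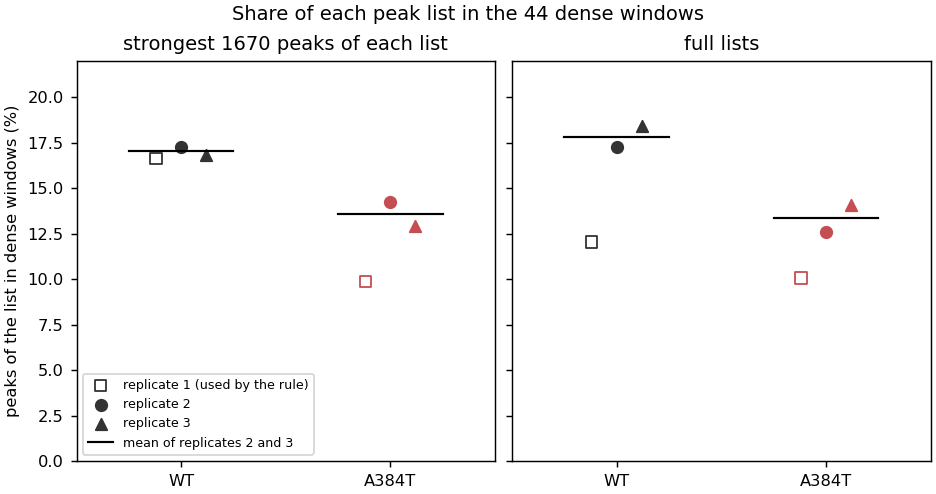
Share of each peak list lying in the 44 dense windows, in percent, for the strongest 1670 peaks of each list (left) and for the full lists (right); bars are means of replicates 2 and 3, and open squares are the replicate 1 lists that chose the windows. WT replicates 2 and 3 lie above A384T replicates 2 and 3 in both panels (17.2 and 16.8% against 14.3 and 12.9% at left).

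The replicate 1 lists, given as a description since they chose the windows, had 16.6% in WT and 9.88% in A384T at the same length. In full lists the shares were 17.2 and 18.4% for replicates 2 and 3 of WT but 12.6 and 14.1% for those of A384T. The difference kept its sign under each alternative run. It was -3.56 points without the packed windows, -1.89 with windows of at least 40 peaks and -5.27 with windows of at least 20.

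Counts per window were compared in the same lists of 1670 peaks. Of the 44 dense windows, 40 had at least 4 peaks summed over replicates 2 and 3 of both genotypes, and 4 held fewer and were not compared. In 10 of the 40 (25%) both WT values exceeded both A384T values, where 12.1% of all 596 windows that passed the same limit did so. In 4 (10%) both A384T values exceeded both WT values, against 13.4% of all windows. Compared within same-numbered pairs, WT was higher in both pairs in 15 of the 40 (37.5%, against 18% of all 596 windows). A384T was higher in both pairs in 5 (12.5%, against 16.9% of all). Equal values block such a call, and low counts are more often equal. The 596 windows were not matched to the dense windows in count, so these shares are not strictly comparable. No window can pass a test with 2 libraries against 2. These groups rest on few libraries. Without A384T replicate 2 the windows whose values did not overlap numbered 30 in place of 14, and without any 1 of the other 3 libraries they numbered 20. Leaving out a library can only keep or raise this number, so the rise follows by construction. The share over all windows with a library left out is not given.

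The largest difference was on chromosome 19 from 11 to 12 Mb. In lists of 1670 peaks this window had 36 and 27 peaks in replicates 2 and 3 of WT but 23 and 13 in those of A384T, a difference of means (A384T minus WT) of -13.5. The replicate 1 lists had 25 in WT and 6 in A384T. On chromosome 9 from 32 to 33 Mb the counts were 29 and 25 in WT and 20 and 15 in A384T, with 25 and 13 in the replicate 1 lists. By the means of replicates 2 and 3, these 2 were the fullest dense windows in both genotypes and had the widest gap between genotypes. A difference of counts can be larger where counts are larger. In proportion, chromosome 1 from 140 to 141 Mb (means of 12 and 6) differed more than the window on chromosome 19 (31.5 and 18).

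Chromosome 1 from 140 to 141 Mb had 14 and 10 peaks in replicates 2 and 3 of WT but 6 and 6 in those of A384T. Chromosome 7 from 82 to 83 Mb had 19 and 19 in WT and 15 and 12 in A384T. Chromosome 17 from 73 to 74 Mb had 9 and 8 in WT and 4 and 3 in A384T. The other 5 windows of this direction, among them chromosome 17 from 84 to 85 Mb and chromosome 12 from 74 to 75 Mb, had differences of means from -4.5 to -2.

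The windows that were higher in A384T held few peaks, and so did some of those higher in WT. Among the latter, chromosome 8 from 125 to 126 Mb had 4 and 5 in WT and 3 and 2 in A384T. Chromosome 1 from 80 to 81 Mb had 5 and 6 in WT and 4 and 2 in A384T. Those higher in A384T were as follows. Chromosome 1 from 182 to 183 Mb had 3 and 3 in WT and 5 and 6 in A384T. Chromosome 3 from 95 to 96 Mb had 2 and 2 in WT and 4 and 5 in A384T. The remaining pair, chromosome 17 from 35 to 36 Mb and chromosome 11 from 106 to 107 Mb, differed in mean by 1.5 and 1 peaks, which is near the smallest difference that whole counts can show.

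**Figure D5:**
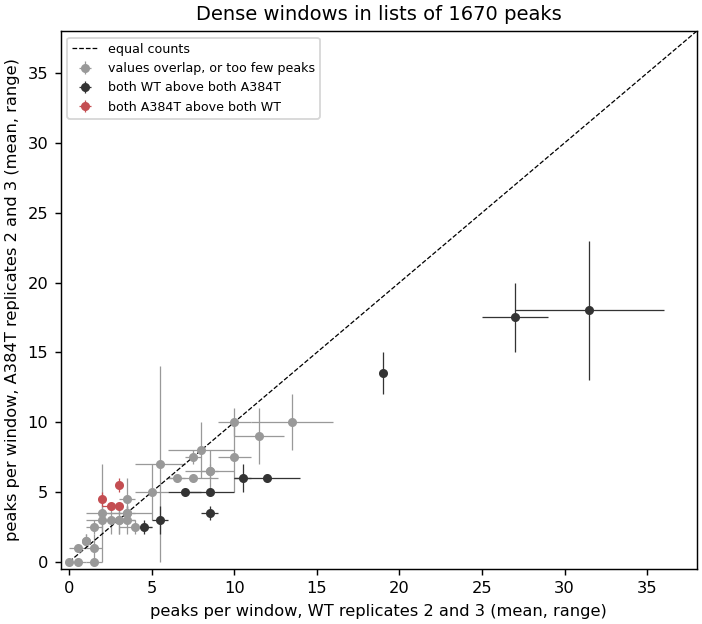
Peaks per dense window in lists of 1670 peaks, WT replicates 2 and 3 (horizontal axis) against A384T replicates 2 and 3 (vertical axis); points are means, bars run from the lower to the higher library, and the dashed line marks equal counts. The 10 windows with both WT values above both A384T values (black) include the fullest windows, such as that with means of 31.5 and 18. They also include windows with few peaks, such as that with means of 4.5 and 2.5. The 4 windows of the reverse kind (red) have means of at most 5.5.

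Neighbouring peaks of a dense window lay closer together in WT than in A384T in the equal-length lists. The median gap between neighbouring summits within a window was 10.2 and 13.6 kb in replicates 2 and 3 of WT but 25.7 and 24.3 kb in those of A384T. WT averaged 11.9 ± 2.44 kb and A384T 24.997 ± 0.998 kb (SD, n = 2 per genotype), and the difference of 13.1 kb again had p = 0.333 in the two-sided exact permutation test. Fewer peaks leave wider gaps by construction: evenly placed, the peaks would have stood 152.8 and 156.6 kb apart in WT and 184.9 and 203.7 kb apart in A384T. In full lists, whose lengths differ, the gaps were 10.2 and 5.10 kb in WT and 6.32 and 13.9 kb in A384T, and the difference of 2.47 kb lay within the spread (exact p = 0.667). With windows of at least 20 or of at least 40 peaks the difference in equal-length lists was 24.97 or 6.00 kb.

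Regions found in both replicate 1 lists were found again more often when they lay in a dense window. Of such regions, 1423 lay inside and 11904 outside the dense windows. WT replicate 2 had a peak in 19.1% of those inside (exact 95% interval 17.1 to 21.3%) and in 11.2% of those outside (10.7 to 11.8%). WT replicate 3 had a peak in 38.9% (36.4 to 41.5%) and 22.7% (21.9 to 23.4%). The shares were 48.6% (46.003 to 51.3%) and 42.2% (41.3 to 43.1%) in A384T replicate 2, and 18.7% (16.7 to 20.8%) and 13.8% (13.2 to 14.4%) in A384T replicate 3. The share was thus higher inside in 4 of 4 libraries, by a mean of 8.87 ± 5.09 points (SD, n = 4). The two-sided exact sign-flip permutation test gave p = 0.13, the smallest that 4 libraries allow. With same-numbered libraries averaged as 2 pairs the same exact test gave p = 0.5, the smallest that 2 pairs allow.

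Regions were split into 4 classes of equal size by their strength in the replicate 1 lists. In the strongest class, WT replicate 2 had a peak in 59.6% inside against 36.1% outside, WT replicate 3 in 78.7 against 55.5%, A384T replicate 2 in 91.8 against 86.9% and A384T replicate 3 in 56.8 against 46.2%. In the weakest class WT replicate 2 had a peak in 0.266% inside and 0.271% outside, and WT replicate 3 in 12.5 and 3.62%. There A384T replicate 2 had a peak in 11.4 and 8.83%, and A384T replicate 3 in 1.86 and 0.744%. Averaged over the 4 classes the excess was 8.98 points. With no split into classes, leaving out the packed windows gave 10.6 points in place of 8.87. The packed windows were set apart after the data were seen, so this value is a description.

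With the lists of replicates 2 and 3 reduced to 1670 peaks the excess was 5.88 points. It was 7.89 and 8.07 points in replicates 2 and 3 of WT but 4.78 and 2.78 points in those of A384T. In full lists WT averaged 12.1 ± 5.93 points and A384T 5.65 ± 1.06 points (SD, n = 2 per genotype). Their difference of -6.43 points had p = 0.333 (two-sided exact permutation test).

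By the number of lists, 170 of the 1423 regions inside (11.9%) had a peak in all 4 libraries of replicates 2 and 3, and 625 (43.9%) had one in none. Outside, these shares were 6.58 and 54.4%. The packed windows differed from the others: 2 of their 232 regions (0.862%) had a peak in all 4 libraries, against 168 of 1191 (14.1%) in the other 38 windows.

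Peak strength in the dense windows differed in sign with and without the packed windows. Over all 44 windows the median percentile of -log10 q was 51.5 inside and 49.4 outside in WT replicate 2, and 45.3 and 51.01 in WT replicate 3. In A384T replicates 2 and 3 it was 49.3 inside and 50.1 outside, and 43.4 and 51.01. The mean difference was -3.02 ± 4.47 points (SD, n = 4; two-sided exact sign-flip permutation test, p = 0.375). Peaks of the packed windows had median percentiles of 6.17, 23.8, 18.97 and 15.6 in these 4 libraries. Without them the differences were 2.93, 6.88, 5.59 and 4.46 points, with a mean of 4.97 points. An upward shift follows from taking low-ranked peaks out of the inside alone, and the packed windows were set apart after the data were seen, so no test is given.

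Peaks in the dense windows were somewhat wider. Median widths were 206.5 bp inside and 187 bp outside in WT replicate 2, and 237 and 206 bp in WT replicate 3. In A384T they were 229 and 211 bp in replicate 2 and 186.5 and 180 bp in replicate 3. The difference was above 0 in 4 of 4 libraries, with a mean of 18.8 ± 10.02 bp (SD, n = 4; two-sided exact sign-flip permutation test, p = 0.13, the smallest possible). It averaged 25.3 ± 8.13 bp for WT and 12.3 ± 8.13 bp for A384T (SD, n = 2 per genotype; exact p = 0.333).

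Some regions of the dense windows had a peak in all libraries. Joining overlapping peaks of the 6 lists gave 171 regions inside the dense windows with a peak in every list, and they lay in 36 of the 44 windows. They made up 6.33% of the regions in dense windows and 3.64% of the regions elsewhere. Such a region needs a peak in both replicate 1 lists, whose counts chose the windows, so these shares are a description. By mean percentile the first of these lay on chromosome 10 from 79131654 to 79132343 and had fold enrichments of 43.4, 31.9 and 44.4 in WT and 29.7, 33.0 and 24.9 in A384T. Fold enrichment is the authors' value for each peak and describes it within its list. Next was chromosome 6 from 99472165 to 99473290, at 50.6, 19.96 and 25.6 in WT and 57.1, 37.5 and 38.8 in A384T. It was followed by chromosome 10 from 13702076 to 13703835, the widest of the best 5 with 1760 bp, and by chromosome 17 from 73298398 to 73299149 and from 84712686 to 84713288. The mean percentile of these 5 over the lists was 97.7 to 99.3.

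Among the strongest peaks of replicates 2 and 3, some regions were listed for 1 genotype. In lists of 1670 peaks, 274 regions in dense windows had a peak in at least 2 of the 4 libraries of replicates 2 and 3. In 37 of them (13.5%) both WT libraries and neither A384T library had a peak, against 11.8% of all 1854 regions. In 17 (6.20%) both A384T libraries and neither WT library had one, against 15.2% of all regions.

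The best-ranked WT regions of this kind were chromosome 9 from 32530560 to 32530946, with folds of 15.04 and 15.1 in WT replicates 2 and 3, and chromosome 17 from 84046258 to 84046483, with 13.6 and 17.0. Those of A384T were chromosome 1 from 182125968 to 182126357, with folds of 35.8 and 11.6 in A384T replicates 2 and 3, and chromosome 3 from 95327643 to 95327935, with 36.0 and 16.3. Each of these 4 had a peak in both replicate 1 lists. In the full lists the region on chromosome 9 also had a peak in both A384T libraries and that on chromosome 17 in A384T replicate 2, and both A384T regions had a peak in WT replicate 3. A region absent from an equal-length list can thus have a peak in the full one.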

How the data were processed

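FoxP3 ChIP-seq libraries of sorted mouse Treg cells were compared, 3 per genotype, grouped by their titles. Per the labels, fixation was in formaldehyde and the antibody was made in house. Bowtie2, MACS2 and mm9 are named in the submitters' processing notes. Per the file headers, MACS 2.1.0.20140616 called peaks in each library against a control, with 1e-10 as the limit on the q-value. The deposited lists give the pileup (a signal value), the -log10 p-value and -log10 q-value, the fold enrichment (a ratio) and the length of each peak. Weaker binding than this limit leaves no peak.

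From the lists, peaks on chromosomes 1 to 19 were placed in windows by summit. Equal-length lists held the 1670 strongest peaks by -log10 q, the length of the shortest list. Tests were two-sided exact permutation tests over libraries of replicates 2 and 3, with no test over windows. Regions were joined where peaks overlapped by at least 1 bp, and shares have exact Clopper-Pearson intervals at 95%. Named windows were those with the highest lower replicate 1 count, those without overlap between genotypes, those near the threshold and those with the fewest or most peaks in replicates 2 and 3. Named regions were the best-ranked of each class. The members, rules and lists were chosen with earlier results of these data known. The packed windows and rows were defined after seeing the gaps.

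Deviations of window counts from the genotype mean, over 754 windows, correlated between same-numbered libraries at 0.355, 0.385 and 0.360 for replicates 1, 2 and 3. Numbers were therefore taken as pairs in the block alternatives and wherever pairs are named. The main tests did not use the pairing. The pairing comes from these data and not from the labels. Alternatives were other minimums per window, shifted windows, stricter peaks, full or equal lists, other overlaps, pairing and each library left out. The counting and the tests were tested on simulated lists. Scripts ran under Python 3.11.15 with scipy 1.17.1, pandas 2.3.3, numpy 2.4.6 and, for figures, matplotlib 3.10.9. Input libraries, gene names and sequences were not analysed here.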

Additional observations from a re-analysis of the deposited data

Results flagged for a closer look

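Chromosome Y, which the comparisons leave out, had 1 window that would meet the rule. Between 2 and 3 Mb WT had 44, 56 and 95 peaks and A384T had 82, 94 and 0, in the order of replicates 1, 2 and 3. It is listed because WT replicate 1 (44) and A384T replicate 1 (82) lie above the 3 that a count of 0 allows and above the minimum of 30. No window of chromosome X met the rule.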

How the results depend on the processing

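Of 76 alternatives to 6 results, 70 kept the direction or a count within 1.5 times, 3 reversed a direction and 3 moved a count. The difference in peak strength, -3.02 points, became 1.33 with -log10 q of at least 20, 1.30 in equal-length lists and 4.97 without the packed windows; the last leaves out, by construction, peaks that ranked low, and for the others the cause was not tested. The 14 windows without overlap (10 higher in WT, 4 in A384T, of 40 compared) became 53 (28 and 25, of 169) with a minimum of 20 peaks. They became 3 (3 and 0, of 13) with a minimum of 40, since more or fewer windows are compared. Beside these stand the shares over all 596 windows, 12.1% higher in WT and 13.4% in A384T. They do not depend on the minimum and are not matched in count to the dense windows. With a minimum of 20 the numbers in the 2 directions were thus close. The windows numbered 11 (9 and 2, of 26) with -log10 q of at least 20. With 1 library left out they numbered 20 to 30, where 30 was without A384T replicate 2. Leaving out a library can only keep or raise this number. Shares over all windows are not given for the last 2 settings. Leaving out 1 library gave -4.10 to -2.78 points for the share in dense windows, -4.71 to -1.48 for strength, 14.7 to 22.8 bp for width, 6.40 to 10.2 points for recurrence and 11.4 to 14.8 kb for spacing. Width ranged from 11.8 bp (minimum of 20 peaks) to 31.4 bp (equal-length lists). With replicate numbers as a block the differences, such as -3.44 points and 13.1 kb, are the same by construction. The exact sign-flip p is then 0.5, the smallest 2 pairs allow, or 1 for strength. Windows higher in both pairs numbered 20 (15 in WT, 5 in A384T), in place of 14 (10 and 4) without overlap. A window without overlap is also higher in both pairs, so this number can only keep or rise. Leaving out the packed windows, equal-length lists for recurrence, and the block for windows, strength, width and recurrence were chosen after seeing the data. The lists give no reads outside peaks, so binding under the q-value limit was not detectable.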
